A study of Mus musculus with 12 samples.

Results

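Zinc finger genes whose mouse symbol is Zfp followed by a number from 600 to 999 were examined in Sp37A3 cells, an immature dendritic cell (DC) line from mouse spleen. The count table held 174 such genes among 55401 rows, and 129 of them had a log2 CPM (counts per 1000000, scaled by TMM) above 0 in at least 2 of the 12 libraries and were tested among 14079 genes. RNA was sequenced from CtrV cells, which carry the empty lentiviral vector, and from EKO cells, transduced with a vector for Cas9 and a guide against Siglece and then pooled from several sorted single-cell clones. Both lines were either left unpulsed (ut) or pulsed with ovalbumin (OVA), all were stimulated with LPS and processed after 24 h, and each of the 4 groups had 3 libraries. The libraries held 27116201 to 39698572 counts. Nothing in the labels says that replicates were separate thaws or passages, so p-values measure the spread between these cultures, which may be technical.

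Most of these genes encode proteins with rows of C2H2 zinc fingers, each of which can read a short stretch of DNA. Many also carry a KRAB box, the part that recruits TRIM28 (KAP1), which in turn brings the histone methyltransferase SETDB1 and heterochromatin proteins to the bound site. KRAB zinc finger proteins are best known for silencing endogenous retroviruses, and their genes lie in clusters that grew by local duplication, so that neighbours are often alike in sequence. Other members of the numbered series have no KRAB box and work in transcription, RNA processing or ribosome assembly.

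Siglece mRNA, the target of the guide, was not lower in the libraries labelled EKO. It lay at 150 to 163 CPM in the 6 CtrV libraries and at 166 to 235 CPM in the 6 EKO-labelled libraries, and its log2 fold change (EKO-labelled over CtrV) was 0.31 with OVA. An edit that shifts the reading frame need not change mRNA, so these counts do not check the label, and the cells are called EKO-labelled. The paper reports a check apart from these counts, in which the pooled clones had little or no Siglec-E expression. On the first principal component (83.8% of the variance) the lines separated, and on the second (7.11%) the EKO-labelled replicate 1 libraries stood apart at 18.8 (ut) and 20.5 (OVA) against -18.3 to 8.95 for the other 10. All 10 listed DC and myeloid markers were tested and summed to 22160 to 24230 CPM in CtrV and 21660 to 24270 CPM in EKO-labelled libraries, a sum that is mostly Cd74. With OVA, 5 of the 10 were higher (Flt3 by 1.74, Irf8 by 1.35, Csf1r by 0.55, H2-Ab1 by 0.52 and Ptprc by 0.32 on the log2 scale) and Itgax was lower by 0.27. Summed T cell, B cell, fibroblast and erythroid markers each stayed below 2 CPM, with Cd3e, Cd3g, Trac, Col1a2, Col3a1, Pdgfra and Dcn among those without a count. In the list of epithelial and endothelial markers, 4 genes were tested and the sum was 757 to 834 CPM in CtrV and 490.0 to 543 CPM in EKO-labelled libraries. Cdh1 alone was lower (log2 fold change -1.90 with OVA), while Pecam1 and Cdh5 were higher (0.85 and 0.87) and Epcam was not called (0.31). The part of these marker differences in the results below was not tested.

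In OVA-pulsed cells, 53 of the 129 tested members differed between the lines, 41 higher and 12 lower in EKO-labelled cells (quasi-likelihood test of edgeR, Benjamini-Hochberg adjusted p under 0.05). Of all tested genes 47.0% were called in this comparison, 25.1% higher and 21.9% lower, and the members' share called, 41.1%, lay below this background. The background was not matched to the members for level. In bulk RNA, fewer cells with a transcript and less of it per cell cannot be told apart. Their shares by direction were 31.8% higher and 9.30% lower. The median log2 fold change of the tested members was 0.11, against 0.00064 for all tested genes. In unpulsed cells 54 members were called, 45 higher and 9 lower, where the background was 46.4% called, 24.5% higher and 21.9% lower. The unpulsed comparison uses other libraries of the same 2 lines, and 45 members were called in both comparisons, all in the same direction, against 39.4% of all tested genes. The 2 comparisons come from one fit and are not independent. Deviations of same-numbered unpulsed and OVA-pulsed libraries had correlations of 0.711, 0.357 and 0.424 in EKO-labelled cells. In CtrV cells these were 0.0893, 0.185 and 0.385. In the OVA-pulsed comparison, all 3 replicate pairs had the direction of the call for each of the 41 higher and 12 lower members. In unpulsed cells this held for all 45 higher and for 8 of the 9 lower members. These pairs are the libraries that gave the calls, so they are no separate check. Without the replicate number as a covariate, 21 members were higher with OVA and 27 without, and the 30 members then called with OVA in either direction were all among the 53. All 6 libraries of one line lay above all 6 of the other for 30 members, 25 with EKO-labelled cells higher, where 35.6% of all tested genes separated in this way.

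**Figure D1:**
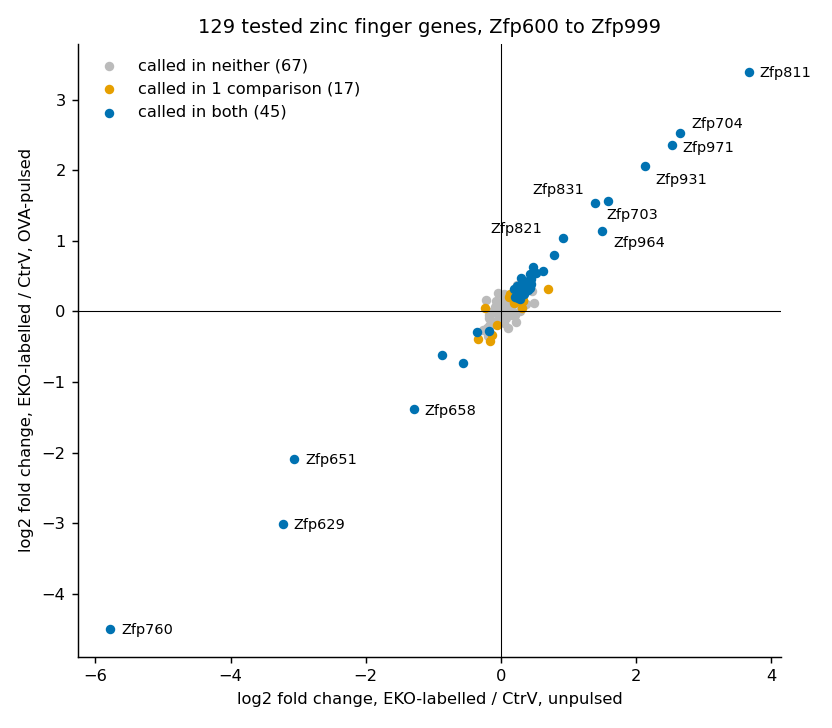
Log2 fold change of EKO-labelled over CtrV cells for the 129 tested members, unpulsed on the horizontal and OVA-pulsed on the vertical axis, with 1 point per gene coloured by whether it was called at adjusted p under 0.05. The 45 genes called in both comparisons lie in the lower left and upper right quadrants, from Zfp760 at -5.78 and -4.50 to Zfp811 at 3.67 and 3.40.

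Most of the differences were small. The median absolute log2 fold change of the 53 members called with OVA was 0.39, against 0.44 over all called genes, and 33 of the 53 lay under 0.5. Only 12 members were called with an absolute log2 fold change of at least 1, 8 higher and 4 lower, where 9.01% of all tested genes met this limit. Of these 12, Zfp760, Zfp629, Zfp651, Zfp971 and Zfp931 exceeded 1 CPM in fewer than 2 libraries of their lower line, so that they were tested only because the other line was higher.

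Zfp760 had the largest fall and came close to switched off in EKO-labelled cells. This KRAB zinc finger gene has 16 fingers by pattern and lies on chromosome 17 from 21707741 to 21725636 on the plus strand (GRCm38). Its level was 3.98, 4.97 and 2.78 CPM in the unpulsed and 4.13, 3.71 and 2.32 CPM in the OVA-pulsed CtrV libraries. In EKO-labelled libraries it was 0.18, 0 and 0.031 CPM unpulsed and 0.24, 0.064 and 0.12 CPM with OVA. The groups did not overlap, and the 6 EKO-labelled libraries held 21 counts together against 679 in the 6 CtrV libraries, a ratio of mean CPM of 34.4. The log2 fold change was -4.50 ± 0.35 (SE) with OVA (adjusted p = 2.9e-06) and -5.78 ± 0.42 without (adjusted p = 1.7e-06). Zfp760 passed the filter only through the CtrV libraries, so these p-values are not free of that selection. In a fixed rule for on-off genes, which asks for a mean under 0.5 CPM in one line and at least 1 CPM in each library of the other, Zfp760 was one of 2 members, with Zfp971 as the other, and 0.781% of all tested genes met the rule. The level of 3 counts, the limit set for a visible level, was 0.0783 to 0.110 CPM in these libraries, so that the EKO-labelled values of Zfp760 lie near it.

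The bases just before the transcription start of Zfp760 are shown because the gene was near 0 in one line, with those of Zfp811, the member with the largest rise. They are from RefSeq promoters of GRCm38.p6, 5′ to 3′ on the strand of the gene, at chr17:21707491-21707740 on the plus strand and chr17:32809932-32810143 on the minus strand, without annotated exon bases. Capitals mark the CG pairs, the bases that DNA methylation acts on; CG reads the same on both strands, and no methylation was measured here.
Zfp760: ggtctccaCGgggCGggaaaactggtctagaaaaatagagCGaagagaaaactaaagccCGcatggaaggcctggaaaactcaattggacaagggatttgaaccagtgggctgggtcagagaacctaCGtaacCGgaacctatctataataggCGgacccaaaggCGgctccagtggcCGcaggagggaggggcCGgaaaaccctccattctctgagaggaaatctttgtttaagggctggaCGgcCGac
Zfp811: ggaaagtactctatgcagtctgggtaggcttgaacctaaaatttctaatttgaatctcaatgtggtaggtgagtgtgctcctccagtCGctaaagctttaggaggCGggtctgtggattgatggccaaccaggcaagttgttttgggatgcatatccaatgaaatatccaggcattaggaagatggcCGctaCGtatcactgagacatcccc
In the whole 250 bases before the start, Zfp760 had 12 CG pairs and Zfp811 had 4. Of 32851 mouse promoter windows of this length, 33.5% held at least 12 and 62.2% at least 4.

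Zfp629 and Zfp651 were also far lower in EKO-labelled cells. Zfp629 (chromosome 7, 19 fingers, no KRAB box found) lay at 5.46, 4.43 and 2.61 CPM in unpulsed and 6.23, 4.83 and 3.05 CPM in OVA-pulsed CtrV libraries. The EKO-labelled values were 0.66, 0.33 and 0.34 CPM unpulsed and 0.97, 0.32 and 0.43 CPM with OVA, all below every CtrV value, and highest in both replicate 1 libraries. Its mean in EKO-labelled cells, 0.51 CPM, was just outside the on-off rule, which it met when either EKO-labelled replicate 1 library was left out. The log2 fold change with OVA was -3.01 ± 0.20 (adjusted p = 8.5e-07), in a gene that also passed the filter only through the CtrV libraries. Zfp651 (chromosome 9, 9 fingers) was the tested member nearest to the filter, with a mean of 0.89 ± 0.20 CPM (SD, n = 3) in OVA-pulsed CtrV cells against 0.200 ± 0.081 CPM in EKO-labelled ones, 171 against 31 counts over the 6 libraries of each line. Its log2 fold change was -2.09 ± 0.43 with OVA and -3.06 ± 0.51 without. Just inside the filter the second highest of the 12 values was 1.09 CPM for Zfp651 and 1.19 CPM for Zfp937, and just outside it was 0.86 CPM for Zfp967 and 0.76 CPM for Zfp783.

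Zfp811, a KRAB zinc finger gene with 13 fingers on chromosome 17 (32795676 to 32809931, minus strand), had the largest rise. It lay at 2.15, 3.00 and 2.06 CPM in unpulsed and 3.37, 2.96 and 1.95 CPM in OVA-pulsed CtrV libraries. In EKO-labelled libraries it reached 22.6, 39.9 and 30.2 CPM unpulsed and 27.5, 30.1 and 30.5 CPM with OVA. The ranges were far apart, with a ratio of means of 10.6 with OVA, and the log2 fold change was 3.40 ± 0.19 with OVA (adjusted p = 2.5e-07) and 3.67 ± 0.20 without. Its neighbours did not share this size of change. Zfp871, the next member before it, was not called (log2 fold change 0.14) and Zfp799, the next after it, rose by 0.42. Zfp760 and Zfp811 lie on the same chromosome in separate clusters.

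Zfp704 on chromosome 3 and Zfp703 on chromosome 8 also rose, and the finger pattern used here found no match in either. Zfp703 encodes a corepressor of the NET family, which has an atypical finger. Zfp704 was 4.99, 5.97 and 6.26 CPM in OVA-pulsed CtrV and 36.5, 31.7 and 31.1 CPM in OVA-pulsed EKO-labelled libraries. Its log2 fold change was 2.53 ± 0.13 with OVA and 2.66 ± 0.14 without. Zfp703 went from 47.7, 36.6 and 32.3 CPM to 105, 121 and 113 CPM with OVA, a log2 fold change of 1.54 ± 0.13. Both rose in all 3 pairs, and neither had a library of one line within the range of the other. Exons of genes on the other strand cover 16.6% of the exon bases of Zfp704 and 13.5% of those of Zfp703, and the use of strand in counting is not given in the sources used here.

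Zfp971 and Zfp931, neighbouring KRAB zinc finger genes on chromosome 2 (178023284 to 178034022, plus strand, and 178067695 to 178078476, minus strand), rose together. Zfp971 lay at 0.39, 0.54 and 0.41 CPM in unpulsed and 0.40, 0.72 and 0.40 CPM in OVA-pulsed CtrV libraries. In EKO-labelled libraries it was 3.44, 2.80 and 1.65 CPM unpulsed and 3.55, 2.15 and 2.06 CPM with OVA, highest in the replicate 1 libraries. Zfp931 was 0.65, 1.09 and 0.86 CPM in OVA-pulsed CtrV and 3.55, 3.76 and 3.44 CPM in OVA-pulsed EKO-labelled libraries. The log2 fold changes with OVA were 2.36 ± 0.27 for Zfp971 and 2.06 ± 0.17 for Zfp931, and neither gene's lines overlapped. The other 2 members of this cluster, Zfp970 and Zfp972, did not reach the filter and stayed at or below 0.18 CPM. The genes are alike: 51.1% of the 50-base stretches of Zfp971 transcripts also occur in another gene, most often Zfp968, and 23.3% of those of Zfp931, most often Gm14399. Reads that fitted several places equally well were placed at one of them, so the split between such genes is uncertain. Zfp968 was at 0.033 to 0.32 CPM in all libraries, and Gm14399 rose by 0.79 with OVA.

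The sequences before the starts of both genes, at chr2:178023034-178023283 on the plus strand and chr2:178078477-178078675 on the minus strand, are shown because the genes moved together. They are again from RefSeq, without annotated exon bases and with CG pairs in capitals.
Zfp971: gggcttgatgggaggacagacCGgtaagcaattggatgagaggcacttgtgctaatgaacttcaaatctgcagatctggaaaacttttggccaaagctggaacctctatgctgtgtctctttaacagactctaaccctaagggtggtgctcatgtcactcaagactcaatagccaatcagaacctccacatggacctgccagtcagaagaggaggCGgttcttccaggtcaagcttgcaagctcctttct
Zfp931: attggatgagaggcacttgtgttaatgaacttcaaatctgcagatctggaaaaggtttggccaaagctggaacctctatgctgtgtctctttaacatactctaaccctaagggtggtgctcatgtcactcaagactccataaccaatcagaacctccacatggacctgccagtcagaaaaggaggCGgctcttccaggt
Over the 199 bases that can be laid side by side without gaps, 191 were identical (96.0%). Each had 2 CG pairs in the whole 250 bases before its start, a number that 81.2% of mouse promoter windows reach.

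Zfp831 on chromosome 2, with a rise close to that of Zfp703, went from 1.69 ± 0.50 to 4.94 ± 0.39 CPM (SD, n = 3) with OVA, a log2 fold change of 1.57. Zfp964, Zfp821 and Zfp827 on chromosome 8 had log2 fold changes of 1.14, 1.04 and 0.79. Zfp827, whose human counterpart recruits the NuRD complex to telomeres, was the most abundant of these, at 35.3, 30.2 and 27.4 CPM in OVA-pulsed CtrV libraries and 60.1, 50.2 and 50.6 CPM in EKO-labelled ones. Zfp935 rose by 0.63, but every 50-base stretch of its transcripts also occurs in Gm49359, an overlapping gene, so its own level cannot be told apart.

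**Figure D2:**
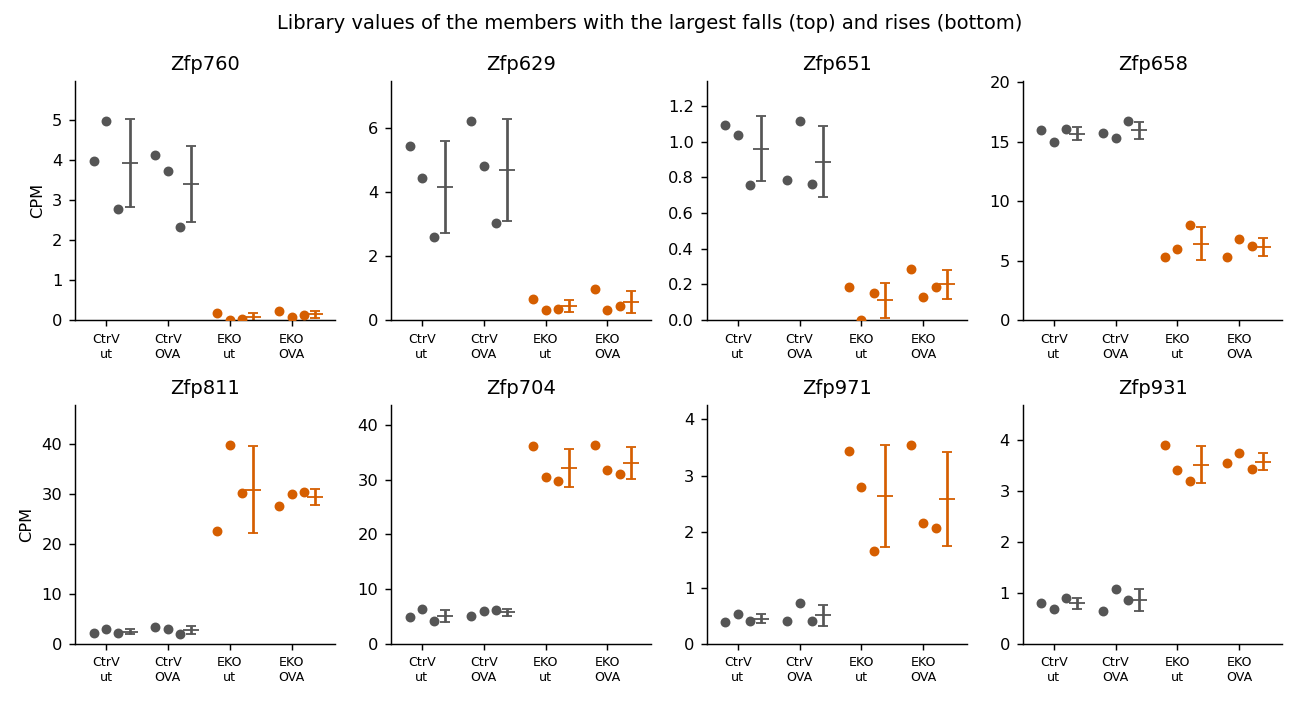
CPM in each library for the 4 members with the largest falls (top) and the 4 with the largest rises (bottom), with 1 point per library, a bar for the group mean and whiskers for the SD (n = 3) in the 4 groups; each panel has its own axis from 0. No EKO-labelled library overlaps a CtrV library in any panel, and Zfp658 alone of the upper 4 keeps over 5 CPM in every EKO-labelled library.

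Zfp658, a KRAB zinc finger gene with 21 fingers, lies 75609 bases before Siglece on chromosome 7 (43562256 to 43575461, plus strand) and was lower in EKO-labelled cells. Its values were 16.0, 15.0 and 16.1 CPM in unpulsed and 15.8, 15.3 and 16.8 CPM in OVA-pulsed CtrV libraries. In EKO-labelled libraries it was 5.31, 5.97 and 8.00 CPM unpulsed and 5.30, 6.78 and 6.26 CPM with OVA. The ranges did not overlap, and the log2 fold change was -1.39 ± 0.11 with OVA (adjusted p = 3.7e-06) and -1.29 ± 0.11 without (adjusted p = 7.8e-06). Leaving out single libraries moved the OVA value between -1.52 and -1.32. None of its 50-base stretches occurs in another gene, and no exon of another gene overlaps it.

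The bases before the start of Zfp658 at chr7:43562120-43562255 (plus strand, RefSeq) are shown as the member nearest to Siglece that differed in both comparisons.
Zfp658: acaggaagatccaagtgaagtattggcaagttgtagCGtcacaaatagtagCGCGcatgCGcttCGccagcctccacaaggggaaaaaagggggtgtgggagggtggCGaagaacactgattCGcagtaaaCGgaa
This stretch was shortened to 136 bases so as to leave out annotated exon bases and holds 8 CG pairs in capitals; the whole 250 bases held 17, and 23.5% of mouse promoter windows hold at least 17.

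The 2 members between Zfp658 and Siglece did not fall with it. Zfp719, 57835 bases from Siglece, was at 25.2, 22.0 and 14.8 CPM in OVA-pulsed CtrV libraries and 25.1, 23.4 and 19.6 CPM in EKO-labelled ones, a log2 fold change of 0.15 ± 0.09 (adjusted p = 0.19). In unpulsed cells it was called, at 0.30 (adjusted p = 0.022), and with OVA it was called at 0.23 only when both EKO-labelled replicate 1 libraries were left out. Zfp819, 32785 bases away and described as a repressor of retroelements, was at 5.15 ± 0.11 CPM in CtrV with OVA, against 5.26 ± 0.98 CPM in the EKO-labelled line, with a log2 fold change of 0.02 ± 0.13 that took either sign with the settings. Farther off, Zfp715 rose by 0.36 ± 0.07 (adjusted p = 0.0015), a call lost without the replicate covariate, and Zfp975 was not called (0.07 ± 0.13). Zfp976, Zfp977 and Zfp936 of the same cluster did not pass the filter.

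Of the 27 tested genes within 1 Mb, Siglece included, 8 were lower and 6 higher in OVA-pulsed EKO-labelled cells, where 21.9% of all tested genes were lower and 25.1% higher, so the count lies near the background. Klk1b9, 315900 bases after Siglece, had a log2 fold change of -2.70 and Cd33, a Siglec gene 106642 bases before it, one of -0.98. Siglecg, 232712 bases before Siglece, rose by 2.52. Lower, higher and uncalled genes lay on both sides of Siglece, some of them in runs. Among the tested genes, Zfp715, Siglecf (0.74) and Siglecg followed each other and were all higher. Cd33 and Zfp658 were next to each other and both lower. A regional cause was not tested.

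**Figure D3:**
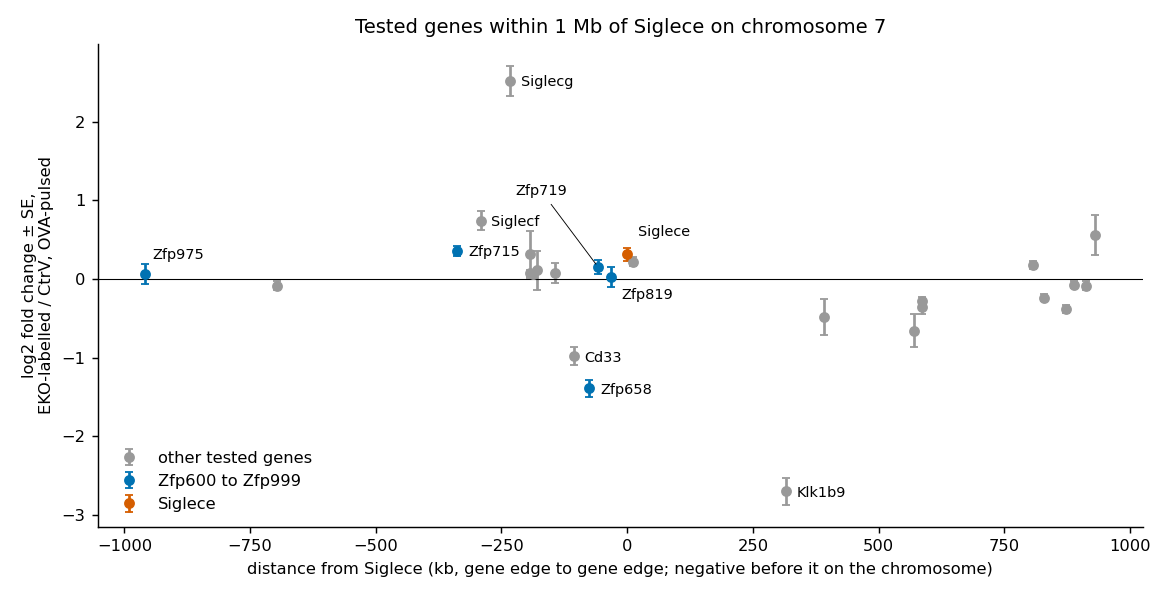
Log2 fold change with its SE (whiskers) of EKO-labelled over CtrV OVA-pulsed cells for the 27 tested genes within 1 Mb of Siglece, by distance in kb between gene edges. Zfp658 at -1.39 lies between Cd33 at -0.98 and Zfp719 at 0.15, and the other 4 members in the window are at 0.02 to 0.36.

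By protein class, members with a KRAB box and fingers made up 118 of the 174 in the table and 85 of the 129 tested, with 2 to 33 fingers and a median of 11.5. With OVA, 27 of the 85 were higher (31.8%) and 6 lower (7.06%), against 25.1% and 21.9% of all tested genes, and their median log2 fold change was 0.12. The share of this class that was called, 38.8%, lay below the 47.0% of all tested genes, which were not matched for level. Of 34 tested members with fingers and no KRAB box found, 9 were higher (26.5%) and 5 lower (14.7%), with a median of 0.030. Of the 7 with neither pattern, which include Zfp703 and Zfp704, 4 were higher. No test of the difference between classes was made. The lower-numbered genes of the same series, Zfp1 to Zfp599, had 41 higher and 18 lower of 157 tested and a median of 0.093, near the members' 0.11.

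Among members described as repressors of retroviral sequences, Zfp809 changed the most in the upward direction. This gene, which recognises the primer binding site of murine leukaemia viruses, was at 24.6, 23.2 and 18.9 CPM in OVA-pulsed CtrV libraries and 33.2, 29.0 and 29.3 CPM in EKO-labelled ones. All 3 EKO-labelled values were higher, and the log2 fold change was 0.46 ± 0.06 (adjusted p = 0.00015) with OVA and 0.45 without. Zfp932, a repressor of endogenous retroviruses, was lower with OVA (-0.42 ± 0.15, adjusted p = 0.040) but not called without (-0.15, adjusted p = 0.42). It shares 37.0% of its 50-base stretches with other genes, most often Gm15446, and its call with OVA was lost on leaving out CtrV replicate 1 (-0.41) or 2 (-0.34) or EKO-labelled replicate 2 (-0.26) or 3 (-0.42), with DESeq2 (-0.42) and with the compared libraries alone (-0.42). Zfp961 and Zfp708 were not called in either comparison, with log2 fold changes of -0.097 and 0.085 with OVA. Zfp708 shares 94.9% of its 50-base stretches with other genes, most often Gm28557, so its own level is uncertain. Zfp638, the mouse counterpart of a protein that silences unintegrated retroviral DNA, ranged from 106 to 128 CPM in OVA-pulsed CtrV libraries and from 116 to 127 CPM in EKO-labelled ones and was not called (0.049 ± 0.058).

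Of the other members on the fixed list of described roles, Zfp652, a corepressor-binding repressor, fell from 72.2, 74.3 and 65.6 CPM to 47.5, 44.9 and 36.5 CPM with OVA (log2 fold change -0.73 ± 0.09). Exons of other genes cover 19.3% of its exon bases on the other strand and 11.8% on the same strand. As the use of strand in counting is not given, part of its level may belong to those genes. Zfp706, a small factor linked to the exit of embryonic stem cells from self-renewal, was lower by less than Zfp652, from 126 ± 1.76 to 103 ± 2.26 CPM (log2 fold change -0.29 ± 0.05). Zfp609, which binds the cohesin loader and Integrator, rose by 0.33 and was not called without the replicate covariate. Zfp622, a factor of large ribosomal subunit maturation, rose by 0.25 (adjusted p = 0.026), a call lost at 0.20 to 0.26 on leaving out CtrV replicate 2 or 3 or any EKO-labelled OVA library, or the replicate covariate (0.25), and with upper-quartile normalization (0.21). Zfp644, a partner of the methyltransferases G9a and GLP, was called without OVA (0.19) and not with it (0.15). Zfp687 and the splicing-associated Zfp830 were not called in either comparison, with log2 fold changes of -0.025 and 0.057 with OVA.

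The smaller falls among the 10 largest included calls that were lost under other settings or with a library left out. Zfp773 fell by 0.62 with OVA and by 0.87 without; the OVA call was lost without the replicate covariate. Zfp939, a pseudogene in the annotation, was lower by 0.39 at an adjusted p of 0.0499, and the call was lost on leaving out any one of the 6 OVA-pulsed libraries, at -0.49 to -0.29, without the replicate covariate (-0.39), with RLE normalization (-0.39), with DESeq2 (-0.40) and with at least 10 counts in every library (-0.39). Zfp953 was lower with OVA only (-0.33), a call lost without CtrV replicate 1 (-0.25) or EKO-labelled replicate 2 (-0.32).

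Levels between genes were compared per kb of exon. The highest of the 174 members was Zfp706, at 23.3 CPM per kb over all libraries, followed by Zfp869 at 21.4, Zfp703 at 21.1, Zfp993 at 15.8 and Zfp710 at 15.2. Zfp703 took its place through the EKO-labelled line. Zfp869 rose by 0.19 with OVA, a call lost on leaving out CtrV replicate 2 (0.14) or 3 (0.16) or EKO-labelled replicate 1 (0.18) or 3 (0.16), with DESeq2 (0.18), with upper-quartile normalization (0.15) and without the expression filter (0.17). Zfp993 rose by 0.30 and shares 86.8% of its 50-base stretches with other genes, most often Zfp991, which rose by 0.24. Zfp710 was lower by 0.28 with OVA (adjusted p = 0.0036). The tested members were low as a group, with a median of mean CPM of 9.32 against 25.0 for all tested genes, and 22 of the 129 lay above that level. By level, 11 of 38 members under 5 CPM, 25 of 62 from 5 to 20 CPM and 17 of 29 above that were called with OVA. The share of all tested genes called at these levels was not computed. The members' share called and that of all tested genes thus come from genes of unlike level.

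The 45 untested members were low in both lines. Of these, 11 had no count in any library, which allows a level of up to 0.110 CPM in the shallowest; they were Zfp648, Zfp663, Zfp697, Zfp612, Zfp872, Zfp879, Zfp735, Zfp616, Zfp647, Zfp641 and Zfp711. The other 34 stayed at or below 0.89 CPM in every library, among them Zfp967 at a mean of 0.71 CPM in the CtrV line and 0.72 CPM in the other line. Among the 45, 13 share over 50% of their 50-base stretches with other genes, so that reads from them can be placed elsewhere.

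By position, 103 of the 174 members lay in 17 clusters of at least 3, with gaps under 500000 bases between neighbours. The largest held 17 members on chromosome 4 (145510759 to 147848366). Of these, 5 were tested and 4 rose, where 24.7% of all tested genes on that chromosome were higher. The members that rose were Zfp992, Zfp993, Zfp991 and Zfp933, by 0.24 to 0.30, while the 12 untested members stayed at or below 0.48 CPM. The median member of this cluster shares 67.9% of its 50-base stretches with other genes and reads may be split between such genes; among those that rose, the share was 43.0% for Zfp992, 86.8% for Zfp993, 82.2% for Zfp991 and 1.05% for Zfp933. A cluster of 14 on chromosome 17 (21383748 to 22867134) had 12 tested members. Of these 33.3% were called, below the 46.8% of all tested genes on that chromosome. There were 3 higher and 1 lower, the lower being Zfp760. Its flanking tested members Zfp983 and Zfp995 were not called (0.15 and 0.064).

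On chromosome 8, 9 of 13 tested members were higher, at a median log2 fold change of 0.36. All tested genes of chromosome 8 had a median of -0.015, with 23.4% higher and 23.1% lower. Without OVA the same count, 9 of 13, was higher. The 9 were Zfp703, Zfp930, Zfp868, Zfp964, Zfp869, Zfp709, Zfp617, Zfp827 and Zfp821, which lie in several places from position 26977325 to 109724932 and not in one cluster. Zfp930, Zfp868, Zfp964 and Zfp869 are neighbours in a cluster of 6, of which Zfp963 and Zfp866 were not called (0.0070 and 0.11). On chromosome 7, with 33 tested members, 4 were higher and 5 lower (27.3% called), against 23.5% higher and 25.8% lower over all tested genes of that chromosome (49.3% called). Both chromosomes were singled out after their values were seen.

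**Figure D4:**
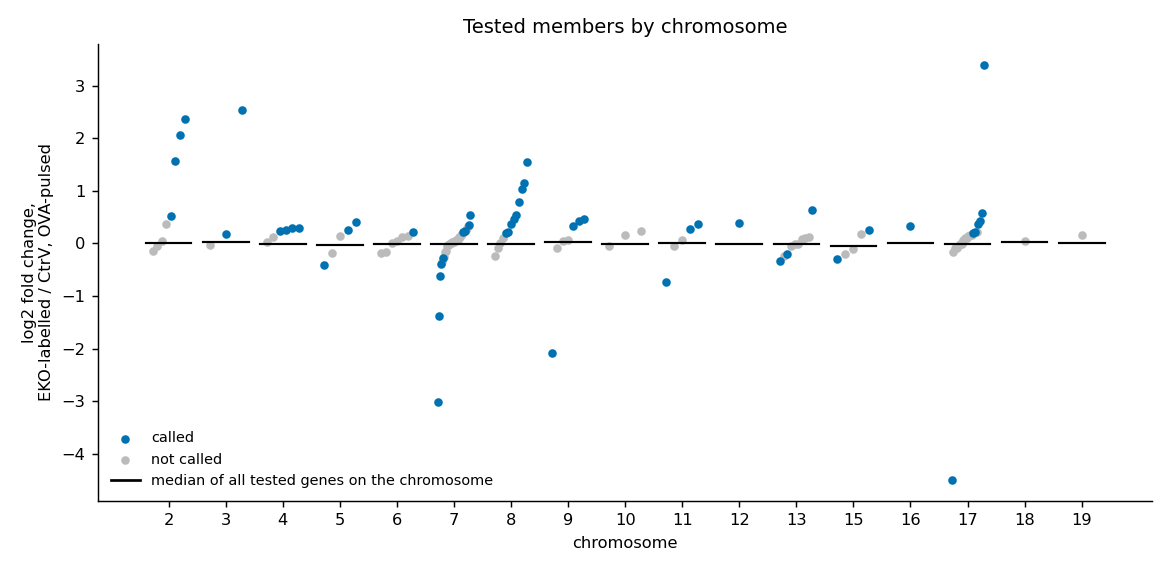
Log2 fold change of EKO-labelled over CtrV OVA-pulsed cells for each tested member, by chromosome; points within a chromosome are ordered by value, and black lines mark the median of all tested genes of that chromosome. On chromosome 8 the 9 called members all lie above 0, from 0.19 to 1.54, while the median line is at -0.015.

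Of the members in the promoter table, 133 had a RefSeq start within 1000 bases of the annotated one. The 250 bases before the start held a median of 10 CG pairs in the tested members and 5 in the 32 untested ones, against 6 over all mouse promoter windows. The 29 members called higher with OVA had a median of 9, the 10 called lower a median of 7 and the 62 not called one of 10.5.

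Of 26 listed partners of KRAB zinc finger proteins, 25 were found by symbol, and all of these were expressed. Of 25 tested cofactor genes, 5 were higher and 8 lower with OVA, and their median log2 fold change was -0.073; the share called, 52.0%, was near the 47.0% of all tested genes. Trim28, whose protein is bound by the KRAB box, lay at 278 ± 9.88 CPM in CtrV with OVA (SD, n = 3) against 222 ± 8.17 CPM in the EKO-labelled line, a log2 fold change of -0.33 ± 0.05 (adjusted p = 0.00039). Setdb1, which methylates lysine 9 of histone H3 at its targets, was lower by 0.22, Cbx5 (HP1 alpha) by 0.35 and Chd3, a NuRD remodeller, by 0.58. Others on the list did not fall with them: Hdac1 and Atf7ip were higher, by 0.32 and 0.27. Chd4, Cbx1 and Hdac2 were not called with OVA (-0.073, -0.067 and -0.036). Resf1, a partner of Setdb1, was higher, rising from 150 ± 34.6 to 280.0 ± 25.8 CPM (log2 fold change 0.92 ± 0.10). Fam208a (Tasor) and Pphln1 of the HUSH complex rose by 0.51 and 0.28, and Mphosph8, their partner, was not called with OVA (0.12). Dnmt1 and Uhrf1, which maintain DNA methylation, were lower by 0.25 and 0.24 with OVA, and neither they nor Cbx5 were called without it.

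Differences between OVA-pulsed and unpulsed cells were not detectable in any member. No member and no other gene was called between OVA-pulsed and unpulsed cells by edgeR or DESeq2 (0% of all tested genes). At an unadjusted p under 0.05 there were 4 members (Zfp995, Zfp768, Zfp688 and Zfp827, with log2 fold changes of -0.19 to 0.15) and 314 genes in all by edgeR, and 0 members by DESeq2. For a dependence of the line difference on pulsing, 0 genes were called, and at an unadjusted p under 0.05 there were 2 members, Zfp688 and Zfp787, and 269 genes in all by edgeR, and 0 members by DESeq2. The line difference of Zfp760 was -5.78 without and -4.50 with OVA, the widest gap of any member at 1.28, in a gene with 6 to 15 counts per EKO-labelled group.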

How the data were processed

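Read counts per gene, not normalized, were deposited by the authors in 1 table for 12 mRNA libraries. Per their methods, reads were aligned to mm10 with STAR, one location was kept for reads with up to 10 equal hits, and read ends were counted on exon unions of an Ensembl gene model with featureCounts; use of strand is not stated. All 12 columns were used. Genes above 0 log2 CPM in 2 or more libraries were tested with edgeR 4.0.16 (R 4.3.3) by TMM normalization and a quasi-likelihood fit over all libraries with group and replicate number as covariates, as in the methods, and Benjamini-Hochberg adjustment over all 14079 genes. The limits of the study are blank in its text, so an adjusted p under 0.05 was used. The replicate numbers come from the labels: deviations of same-numbered libraries of the 2 lines had correlations of 0.450, 0.295 and 0.298 with OVA and of 0.066, -0.0092 and 0.271 without.

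Positions and symbols came from GENCODE M21 on GRCm38, which is not the gene model used for counting. C2H2 fingers and KRAB boxes were found by pattern in translated coding sequences of that annotation, and 50-base stretches shared between genes in its transcripts. Promoters came from RefSeq (GRCm38.p6). Alternatives were RLE and upper-quartile normalization, DESeq2 1.42.0, limma voom (3.58.1), other filters and thresholds, the compared libraries alone, no replicate covariate and leaving out libraries; a fit with the bias-adjusted deviances of newer edgeR was added once values had been seen. The main edgeR fit and the limma voom and DESeq2 fits were tested on simulated counts, for the OVA-pulsed comparison only. The simulated counts held no replicate effect and far fewer changed genes than were called here. The other alternatives were not tested in this way. The named members are the 10 largest rises and falls, on-off genes, those within 1 Mb of Siglece, the 5 highest per kb and those with a described role; neighbours, chromosome 8 and other members were named after their values were seen. The members and lists were chosen with earlier results of these data known.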

Additional observations from a re-analysis of the deposited data

How the results depend on the processing

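The counts of members called between the lines kept their size within 1.5 times under other normalization, filters, tests and an adjusted p under 0.01. The exceptions were the fits without the replicate block, which gave 21 members higher with OVA and 27 without, and a minimum absolute log2 fold change of 1, which left 8 higher and 4 lower with OVA and 7 higher and 4 lower without. The number of on-off members, 2, became 3 with upper-quartile normalization and without an EKO-labelled replicate 1 library, by the addition of Zfp629; at limits of 1 and 2 CPM the 3 were Zfp629, Zfp760 and Zfp931. Upper-quartile normalization moved the median of all genes to -0.037 and gave 33 members higher and 14 lower. Leaving out each library gave 28 to 40 members higher and 9 to 10 lower with OVA, and 34 to 47 higher and 7 to 10 lower without. Without both EKO-labelled replicate 1 libraries, 45 of the 53 members remained called with OVA. Among 35 single members, 23 kept their call under every setting in which they were fitted. Zfp760 and Zfp651 are among these, but neither was fitted with at least 10 counts in every library. Signs turned for Zfp819 (-0.016 with upper-quartile normalization, and -0.026, -0.029 and -0.11 without CtrV OVA replicate 2, CtrV OVA replicate 3 and EKO OVA replicate 3), Zfp687 (0.015 without EKO OVA replicate 2) and Zfp975 (-0.059 without EKO OVA replicate 3), none of them called, and with each library left out the highest or lowest values on the other side were 0.11, -0.099 and 0.13; the cause was not tested. Members near 1 CPM had few counts per library, and paralogs share reads, which limits what can be said of single genes in the clusters on chromosomes 2 and 4.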
